A study of Mus musculus with 18 samples.

Results

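Cholesterol synthesis and lipoprotein transport were followed through 34 genes in LSK (lineage-negative Sca-1+ c-Kit+ haematopoietic stem and progenitor cells) and CMPs (common myeloid progenitors) of lupus-prone NZBW/F1 and control C57BL/6 mice. The 34 members were taken by symbol out of 20639 genes listed for either cell type, and each was found once in both. They comprise Apoe, 2 efflux pumps, 3 uptake receptors, 1 gene of receptor degradation, 2 sterol receptors, 3 genes of lysosomal export and cytosolic transfer, 5 genes of sterol sensing and 17 genes of cholesterol synthesis. The list was chosen by way of the level of Apoe in LSK of F1-L against F1-P mice. Of 14332 genes in that contrast, 4 passed the thresholds by limma, the main test used here. With the same thresholds 657 passed by edgeR's likelihood ratio test and 734 by DESeq2. Every value of that contrast is therefore given here as a description with no test.

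RNA was sequenced from bone marrow cells of female mice. F1-P (F1-prediseased) were NZBW/F1 mice aged 12 weeks, and F1-L (F1-lupus) were NZBW/F1 mice aged 28 to 36 weeks that were counted as diseased once urine protein reached 100 ng/dL after 6 months of life. B6-Y (B6-young, 12 weeks) and B6-O (B6-old, 28 to 36 weeks) were wild-type C57BL/6 mice. Age and disease stage cannot be told apart within NZBW/F1, and strain and supplier cannot be told apart between NZBW/F1 and C57BL/6. LSK of all 4 groups were profiled, and CMPs of the NZBW/F1 groups alone, with 3 samples (n = 3) in every group. The labels give replicate numbers and do not say whether samples came from separate mice, and a legend for CMPs gives 4 per replicate, so p-values measure the spread between these samples. Values are CPM (reads of a gene relative to the library size as scaled by the authors), and the LSK and CMP tables were scaled separately, so no test was made between cell types.

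Mammalian cells make cholesterol from acetyl-CoA through the mevalonate pathway or take it up in lipoproteins. When sterols are low, SCAP carries the SREBP transcription factors out of the endoplasmic reticulum, and the processed factors switch on synthesis and uptake genes, while INSIG proteins hold the complex back when sterols are high. When oxysterols accumulate, LXR receptors switch on efflux pumps and their acceptor APOE. In haematopoietic progenitors, efflux through these pumps and APOE on the cell surface is known to restrain cytokine-driven proliferation.

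The upstream sequence of 5 members is shown because Apoe stood out in level, Srebf2, Insig1 and Cyp51 passed the test together in F1-L against B6-O, and Hsd17b7 passed it in the opposite direction. All are RefSeq sequences of build GRCm38.p6, printed 5′ to 3′ on the strand of the gene and ending before the annotated start of the gene. Capitals mark TCACNCCA (the core of a sterol regulatory element), CCAAT (bound by the factor NF-Y) and GGGCGG (a GC box, bound by Sp1), each on either strand, where the other strand reads as the reverse complement. The stretches lie at chr7:19699189-19699438 on the minus strand for Apoe, chr15:82147019-82147180 on the plus strand for Srebf2, chr5:28071162-28071362 on the plus strand for Insig1, chr5:4104747-4104947 on the minus strand for Cyp51, and chr1:169969242-169969455 on the minus strand for Hsd17b7.
Apoe: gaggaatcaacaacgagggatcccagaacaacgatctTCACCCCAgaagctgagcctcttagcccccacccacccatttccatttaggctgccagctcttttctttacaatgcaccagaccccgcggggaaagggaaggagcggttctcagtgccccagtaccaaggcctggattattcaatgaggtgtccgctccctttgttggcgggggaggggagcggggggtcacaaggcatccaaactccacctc
Srebf2: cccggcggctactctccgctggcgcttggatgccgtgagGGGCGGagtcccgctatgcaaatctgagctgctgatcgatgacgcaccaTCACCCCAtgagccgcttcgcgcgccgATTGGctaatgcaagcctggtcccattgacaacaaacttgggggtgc
Insig1: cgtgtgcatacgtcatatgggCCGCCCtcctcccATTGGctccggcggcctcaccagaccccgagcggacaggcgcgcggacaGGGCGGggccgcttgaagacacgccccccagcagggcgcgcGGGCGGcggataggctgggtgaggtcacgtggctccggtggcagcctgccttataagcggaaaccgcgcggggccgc
Cyp51: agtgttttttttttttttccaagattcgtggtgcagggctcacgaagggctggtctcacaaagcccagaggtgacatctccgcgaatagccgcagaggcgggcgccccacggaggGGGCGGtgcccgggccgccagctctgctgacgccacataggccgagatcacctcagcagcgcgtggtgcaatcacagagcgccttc
Hsd17b7: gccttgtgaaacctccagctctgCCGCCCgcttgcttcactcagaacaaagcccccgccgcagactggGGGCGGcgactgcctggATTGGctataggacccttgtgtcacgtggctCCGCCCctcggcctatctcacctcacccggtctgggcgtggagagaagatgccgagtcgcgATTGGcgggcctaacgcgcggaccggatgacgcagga

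RefSeq windows of 250 bases before a start were found for 27 of the 34 members. On either strand, TCACNCCA stood in the windows of 4 of the 27 (14.8%), against 4.20% of 27025 genes, and these 4 were Apoe, Srebf2, Hmgcs1 and Msmo1. CCAAT stood in 20 of the 27 (74.1%, against 37.5% of all genes), among them 13 of the 14 synthesis members matched. GGGCGG stood in 23 of the 27 (85.2%, against 35.4% of all genes). The 27025 genes are all those with a RefSeq window, expressed in these cells or not, while every member was expressed. The shares among expressed genes alone were not counted, so the gaps cannot be read as a trait of this list. Of the 5 shown, Apoe held the sterol core and neither of the others, Srebf2 held all of the motifs, and Insig1, Cyp51 and Hsd17b7 held the CCAAT and GC boxes and no TCACNCCA in the 250 bases. The CCAAT of Cyp51 lies past its annotated start and is not printed. An exact form of the LXR element called DR4 stood in none of the member windows and in 4 of 27025 genes (0.0148%). Looser forms of this element and of the sterol core were not searched for, so whether members carry such forms was not tested. A match of letters is a description and no site was measured here.

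Depth was 23772252 to 28493747 reads in LSK and 20001328 to 24761060 in CMPs. Immunoglobulin genes took 16.8% to 36.6% of the reads in NZBW/F1 LSK, against 0.301% to 4.76% in C57BL/6 LSK and at most 0.255% in CMPs. Ly6a, which encodes the Sca-1 of the LSK gate, had 293 to 879 CPM in NZBW/F1 LSK, 35.5 to 113 in C57BL/6 LSK and 1.14 to 6.70 in CMPs, and Kit had 257 to 668 CPM in all 18 libraries. Genes of lineages that the sort was meant to remove were present. The 11 late neutrophil markers summed to 12373 CPM in LSK F1-L replicate 1 and 10719 in LSK B6-O replicate 3 against a lowest sum of 301 CPM in LSK, and to 6453 and 8442 CPM in CMP F1-P replicates 2 and 3 against 64.2 to 431 CPM in CMP F1-L. The 8 erythroid markers reached 2794 CPM in LSK F1-P replicate 3.

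**Figure D1:**
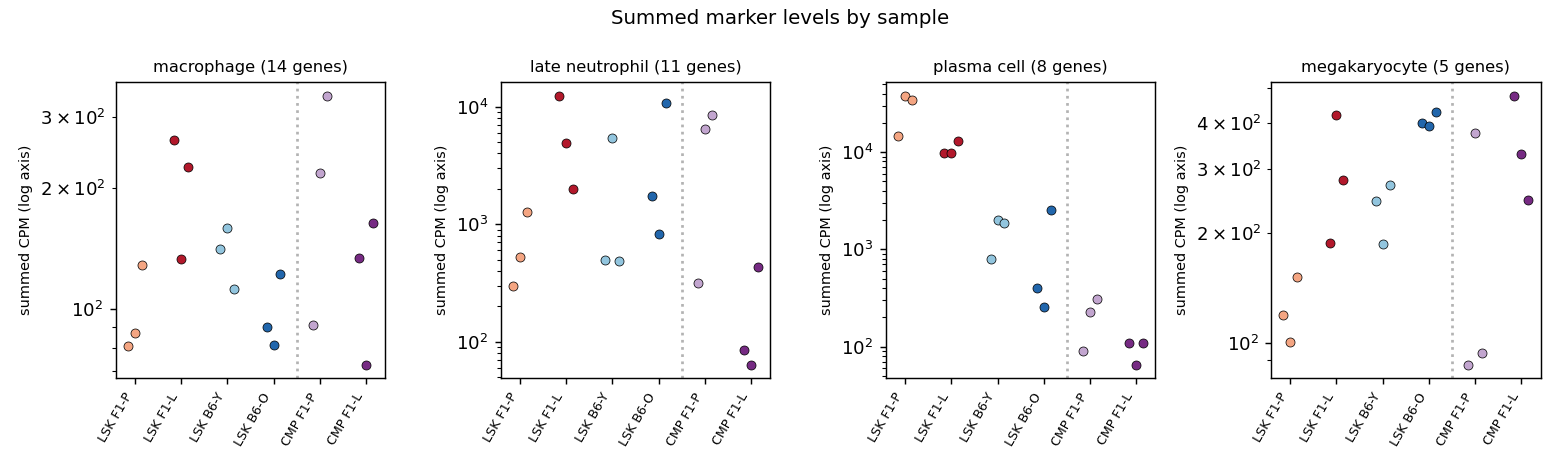
Summed CPM (log axis) of 4 marker lists in each of the 18 libraries, with 1 point per library and the number of genes listed in each title. The 8 plasma cell genes sit between 9742 and 37905 CPM in NZBW/F1 LSK and at or below 2529 CPM elsewhere, and late neutrophil genes are highest in LSK F1-L replicate 1.

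All 34 members were expressed above the filter (at least 1 CPM in at least 3 samples of the comparison) in each of the 5 comparisons. Their lowest counts in a library were 19 reads in LSK and 5 reads in CMPs, both for Nr1h3. Levels were ordered per length, as CPM per kilobase of annotated exon. In LSK of B6-O, Apoe came first with 84.9 ± 31.4 (SD, n = 3), followed by Nr1h2 with 55.7 ± 19.3 and Srebf2 with 45.1 ± 2.66, and the spreads of Apoe and Nr1h2 overlapped. In LSK of F1-P the order was led by Nr1h2 with 49.6 ± 6.50, Npc2 with 34.3 ± 3.12 and Srebf2 with 33.0 ± 2.37 CPM per kilobase, and Apoe had 7.36 ± 0.588. Npc2 led in CMPs of F1-P with 39.1 ± 4.33 CPM per kilobase. Fdps was the lowest synthesis member in every group, with means of 0.347 to 0.555 CPM per kilobase. Reads of Fdps can be shared with Gm43738, which overlaps it on the same strand, and with processed pseudogenes such as Gm3571 at 98.9% identity over 1062 bases, so its level is uncertain. The same holds for Acat2, which matched its paralogue Acat3 at 97.7% identity over 1477 bases, and for Idi1, which matched the processed pseudogene Gm13502 at 100% over 684 bases.

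Apoe encodes apolipoprotein E, which accepts effluxed cholesterol and carries lipoproteins to their receptors (chromosome 7, 19696109 to 19699188, GRCm38). In LSK of F1-P its CPM was 14.6, 15.6 and 17.1 in the 3 samples. In LSK of F1-L it was 45.2, 37.8 and 41.2. In LSK of B6-Y it was 82.5, 73.0 and 131, and in LSK of B6-O 136, 149 and 259. The 4 LSK groups thus stood in the rising order of F1-P, then F1-L, then B6-Y, then B6-O with no sample of one overlapping the next, although the highest B6-Y sample and the lowest B6-O sample lay close together. In CMPs Apoe had 12.6, 19.8 and 22.1 CPM in F1-P and 20.9, 13.1 and 16.6 in F1-L, and these groups overlapped. The values rested on 254 to 7736 reads per library.

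Apoe passed the test in both comparisons of strain. Its mean was 15.7 ± 1.26 CPM in F1-P against 95.5 ± 31.1 in B6-Y, a log2 difference of −2.48 on the log2(CPM + 1) scale (SE 0.22, limma adjusted p = 0.000312). It was 41.4 ± 3.73 in F1-L against 181 ± 67.1 in B6-O, a log2 difference of −2.05 (SE 0.24, limma adjusted p = 0.00269). The B6 means were 6.07 and 4.38 times those of the NZBW/F1 mice of like age. Apoe passed under each of the alternatives run in both comparisons, including each library left out in turn. Both comparisons use the NZBW/F1 samples on which Apoe was picked. NZBW/F1 reads were aligned to the C57BL/6 reference, so for Apoe and every other member a strain difference in expression and one in mapping cannot be told apart.

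Within NZBW/F1, the contrast that drew attention to Apoe, the mean in F1-L was 2.63 times that in F1-P (log2 difference 1.34). Within C57BL/6, whose mice took no part in that choice, B6-O stood above B6-Y in 3 of 3 samples, with a mean of 181 ± 67.1 against 95.5 ± 31.1 CPM. That log2 difference of 0.91 (SE 0.31) did not pass the test (limma adjusted p = 0.567). In CMPs, F1-L and F1-P had 16.8 ± 3.89 and 18.1 ± 4.91 CPM, a log2 difference of −0.09 (SE 0.26, limma adjusted p = 0.910). The sign in CMPs turned to 0.07 without F1-L replicate 2 and to 0.06 without F1-P replicate 3.

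The levels of marker genes of other cell types also differed between the LSK groups. The 8 plasma cell genes, opposite in sign to Apoe between the strains, were all higher and passed in F1-P against B6-Y (median log2 difference 3.40), and 7 of the 8 passed in F1-L against B6-O (median 3.53). They were opposite in sign to Apoe within the strains too. All 8 had a lower mean log2 value in F1-L than in F1-P (median log2 difference −0.84). All 8 were also lower in B6-O than in B6-Y (median −0.88, none passing the test). The 11 late neutrophil genes all had a higher mean in F1-L than in F1-P (median log2 difference 3.00) and in B6-O than in B6-Y (median 1.13, none passing the test). Between the strains, all 11 were higher in F1-L than in B6-O, while 10 of 11 were lower in F1-P than in B6-Y. Macrophage genes were higher for 12 of 14 in F1-L against B6-O and lower for 10 of 12 in F1-P against B6-Y. In each strain comparison, 7 of 8 LSK gate and stem cell genes were lower in NZBW/F1, as Apoe was. So were 10 of 10 proliferation genes and 5 of 5 megakaryocyte genes. The summed CPM of 5 megakaryocyte genes was 101 to 152 in F1-P, 188 to 421 in F1-L, 187 to 271 in B6-Y and 394 to 429 in B6-O. The summed CPM of 14 macrophage genes was 80.8 to 129 in F1-P and 133 to 263 in F1-L, and 13 of the 14 had a higher mean in F1-L. It was 112 to 159 in B6-Y and 81.5 to 122 in B6-O, where all 12 that could be tested had a lower mean than in B6-Y. None of these genes was at 0 in a whole group, and the defining macrophage genes C1qa, C1qb and C1qc lay between 0.373 and 9.33 CPM in the LSK libraries. The part of other cell types in the level of Apoe or of any other member was not tested. In bulk samples fewer cells of a type and less RNA per cell cannot be told apart.

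**Figure D2:**
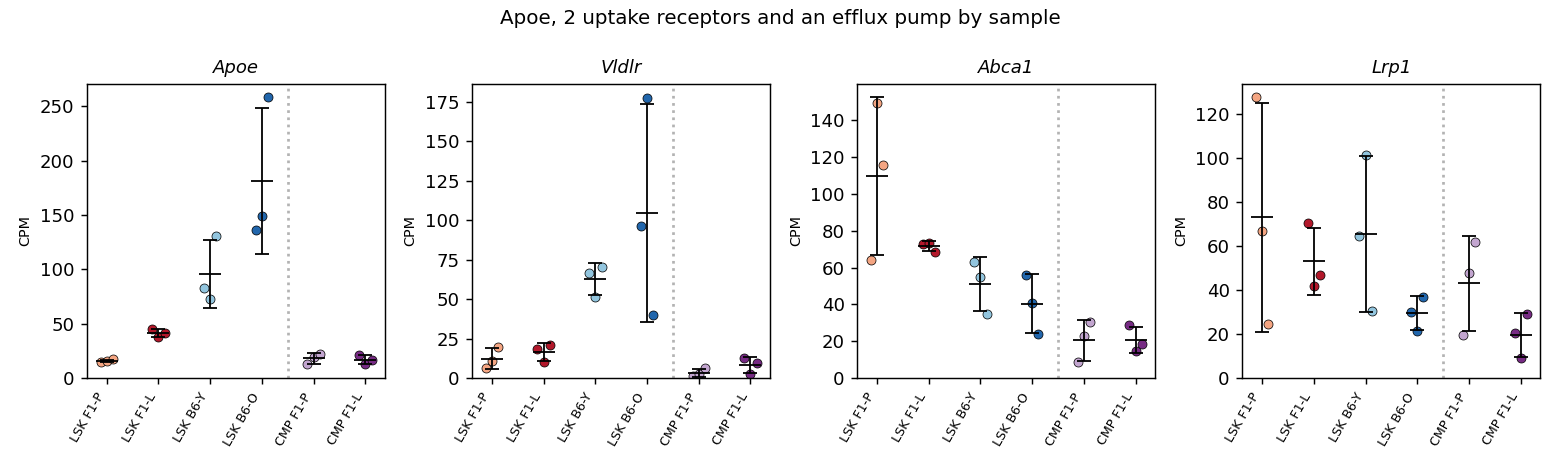
CPM of Apoe, Vldlr, Abca1 and Lrp1 in the 3 libraries of each group (points), with the mean and SD (bars); the dotted line parts LSK from CMPs, which were scaled separately. Apoe sits at 14.6 to 17.1 in LSK F1-P and 136 to 259 in LSK B6-O, and Vldlr at 6.64 to 20.8 in NZBW/F1 LSK against 40.2 to 178 in C57BL/6 LSK.

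Of the 34 members, 4 passed the test between F1-P and B6-Y in LSK, against a background of 16.2% of all 14380 genes tested. These were Apoe, Vldlr and Npc1, which were lower in F1-P, and Hsd17b7, which was higher. Between F1-L and B6-O 6 members passed, against 11.6% of 14381 genes, with Apoe, Vldlr, Srebf2, Insig1 and Cyp51 lower in F1-L and Hsd17b7 higher. The members' shares are thus near those of all genes. With edgeR's likelihood ratio test on the recovered reads the counts were 5 and 8, against backgrounds of 19.1% and 15.2%. No member passed between B6-O and B6-Y (background 0 of 14005 genes, or 0%, by limma and 0.814% by the likelihood ratio test) or between F1-L and F1-P in CMPs (backgrounds 0.00774% and 2.38%), with 2 members at an unadjusted p under 0.05 in each. The likelihood ratio test, the quasi-likelihood test and DESeq2 also called 0 members in these 2. Among all genes, 927 and 1267 were at an unadjusted p under 0.05 in those comparisons.

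Vldlr, the very low density lipoprotein receptor that binds APOE (chromosome 19, 27216484 to 27254231), had 6.64, 10.6 and 19.7 CPM in LSK of F1-P and 18.3, 10.4 and 20.8 in F1-L. It had 66.3, 51.1 and 70.5 CPM in B6-Y and 95.9, 178 and 40.2 in B6-O. All 6 NZBW/F1 samples lay below all 6 C57BL/6 samples. The log2 difference was −2.37 in F1-P against B6-Y (SE 0.34, limma adjusted p = 0.00288) and −2.41 in F1-L against B6-O (SE 0.52, limma adjusted p = 0.0275). The first held with each library left out, while the second passed in only 1 of those 6 fits, with a log2 difference between −2.97 and −1.91. In CMPs Vldlr was low, with 1.25, 2.38 and 6.34 CPM in F1-P and 12.9, 2.53 and 9.35 in F1-L, and the groups overlapped (log2 difference 1.06, SE 0.63, limma adjusted p = 0.622).

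Lrp1, a large scavenging receptor for APOE-bearing remnants, and Scarb1, the receptor for high density lipoprotein, did not pass in any tested comparison. Lrp1 varied widely, with 128, 66.8 and 24.5 CPM in LSK of F1-P, 70.5, 41.8 and 47.0 in F1-L, 64.5, 101 and 30.7 in B6-Y and 29.9, 21.6 and 37.0 in B6-O. Its coefficient of variation in F1-P, 71.2%, was the largest of the members there. F1-L lay above B6-O in every sample for Lrp1 (log2 difference 0.82, SE 0.26, limma adjusted p = 0.0903; likelihood ratio test, adjusted p = 0.0468). Scarb1 had means of 48.1 to 67.8 CPM in the LSK groups and of 134 and 139 CPM in CMPs.

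Abca1 encodes the pump that loads cholesterol onto lipid-poor apolipoproteins, APOE included, and Abcg1 a pump that passes cholesterol to formed particles. Abca1 had 64.1, 149.5 and 115.7 CPM in LSK of F1-P, 72.8, 73.4 and 68.6 in F1-L, 63.3, 54.8 and 35.0 in B6-Y and 56.1, 41.0 and 24.1 in B6-O. NZBW/F1 samples lay above those of C57BL/6 mice of like age in every case, opposite in sign to Apoe. The log2 difference was 1.05 in F1-P against B6-Y (SE 0.33, limma adjusted p = 0.0666) and 0.89 in F1-L against B6-O (SE 0.28, limma adjusted p = 0.0902), so neither passed. The likelihood ratio test called the first (adjusted p = 0.0147), and DESeq2 called both (adjusted p = 0.00410 and 0.0394). The 2 F1-P libraries with the most Abca1, replicates 2 and 3, were also those with the highest sums of 8 plasma cell genes, 37905 and 33992 CPM against 14635 in replicate 1, and the part of those cells was not tested. Abcg1 had means between 54.9 and 67.0 CPM in LSK and its log2 differences lay between −0.27 and 0.10 in the 5 comparisons. In CMPs Abca1 had 8.50, 22.7 and 30.6 CPM in F1-P and 28.7, 14.9 and 18.4 in F1-L.

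Mylip encodes a ubiquitin ligase, induced by LXR, that sends lipoprotein receptors for degradation. Its largest difference was in CMPs, with 12.1, 29.9 and 32.2 CPM in F1-P and 18.6, 16.3 and 15.5 in F1-L (log2 difference −0.42, SE 0.36, limma adjusted p = 0.715). That difference was −0.85 without F1-P replicate 1, where it passed (limma adjusted p = 0.0313), −0.24 without F1-P replicate 2 and −0.18 without F1-P replicate 3. In LSK its CPM was 41.9, 49.1 and 51.2 in F1-P, 57.6, 41.1 and 44.9 in F1-L, 39.4, 49.0 and 44.7 in B6-Y and 46.8, 40.0 and 30.8 in B6-O, and neighbouring groups overlapped. The LXR genes differed in level. Nr1h2, which encodes LXR beta, had means of 159 to 206 CPM in LSK, while Nr1h3, which encodes LXR alpha, had 1.07, 1.11 and 1.60 CPM in F1-P, 2.24, 2.86 and 1.71 in F1-L, 0.682, 1.42 and 1.24 in B6-Y and 1.21, 1.45 and 2.14 in B6-O. In CMPs Nr1h3 had 0.240, 1.06 and 1.72 CPM in F1-P and 2.18, 0.929 and 1.09 in F1-L. Neither LXR gene passed in a tested comparison.

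Npc1, the lysosomal membrane protein that exports cholesterol from lipoprotein uptake, had 114, 107 and 76.7 CPM in LSK of B6-Y and 79.4, 77.9 and 53.3 in B6-O. It had 71.4, 60.3 and 53.2 CPM in F1-P and 51.9, 46.3 and 43.3 in F1-L. Every F1-P sample lay below every B6-Y sample (log2 difference −0.67, SE 0.19, limma adjusted p = 0.0441). This call sat at the threshold: it passed in 2 of the 6 fits with a library left out and was lost with the quasi-likelihood test (adjusted p = 0.0547), with both other scalings (limma adjusted p = 0.0531 with median-of-ratios and 0.0549 with TMM without immunoglobulin genes) and with a mean of at least 5 CPM (0.0505). The groups were also apart in F1-L against B6-O, without passing (log2 difference −0.55, SE 0.18, limma adjusted p = 0.106). In CMPs Npc1 had 29.5, 36.6 and 36.3 CPM in F1-P and 30.6, 27.7 and 33.7 in F1-L. Its partner Npc2, which hands cholesterol to NPC1 in the lysosome, and Stard4, a cytosolic sterol carrier, did not pass in any tested comparison. Npc1 shares exonic bases with Rmc1 on the opposite strand, and a library kit that does not mark strand cannot part their reads.

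Srebf2, the SREBP that mainly drives cholesterol synthesis (chromosome 15, 82147181 to 82205379), and Insig1, an SREBP target that retains SCAP (chromosome 5, 28071363 to 28078662), were lower in F1-L than in B6-O. Srebf2 had 188, 228 and 198 CPM in F1-L and 326, 342 and 304 in B6-O, with a log2 difference of −0.66 (SE 0.14, limma adjusted p = 0.0238). In F1-P it had 256, 222 and 234 CPM against 320.0, 292 and 345 in B6-Y, again with no overlap (log2 difference −0.42, SE 0.13, limma adjusted p = 0.0668). Insig1 had 28.8, 37.5 and 34.2 CPM in F1-L and 46.0, 60.7 and 62.4 in B6-O, with a log2 difference of −0.73 (SE 0.17, limma adjusted p = 0.0375). In F1-P and B6-Y its samples overlapped, with 59.2, 45.3 and 44.6 CPM against 50.3, 54.3 and 65.2 (log2 difference −0.19, SE 0.16, limma adjusted p = 0.488). In CMPs Insig1 had 22.2, 21.3 and 20.5 CPM in F1-L, below each of 24.6, 37.4 and 39.6 in F1-P, without passing (log2 difference −0.61, SE 0.19, limma adjusted p = 0.426). Srebf2 in CMPs had 171, 151 and 143 CPM in F1-L and 145, 187 and 192 in F1-P. Srebf1, Scap and Insig2 did not pass in any tested comparison. Insig2 lay above its controls without overlap in F1-P against B6-Y, in F1-L against B6-O and in CMP F1-L against F1-P, with log2 differences of 0.42, 0.37 and 0.33.

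Cyp51, the lanosterol demethylase (chromosome 5, 4081145 to 4104746), was the 1 synthesis gene that passed as lower in F1-L than in B6-O, with 22.1, 27.0 and 25.8 CPM against 36.7, 48.2 and 50.0 (log2 difference −0.82, SE 0.17, limma adjusted p = 0.0236). In F1-P it had 45.5, 32.0 and 37.0 CPM and in B6-Y 39.9, 37.7 and 39.0, and these groups overlapped. In CMPs it had 31.4, 35.2 and 32.9 CPM in F1-P and 32.4, 30.0 and 27.5 in F1-L. Its last exons share 166 bases with Akap9 on the other strand. Sqle, the squalene epoxidase that is an SREBP2 target, stood just outside the threshold in F1-L against B6-O, with 17.6, 26.4 and 23.1 against 33.1, 54.3 and 38.7 CPM (log2 difference −0.87, SE 0.23, limma adjusted p = 0.0546; quasi-likelihood test, adjusted p = 0.0498).

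Hsd17b7, the sterol 3-keto reductase (chromosome 1, 169949535 to 169969241), went the other way from Cyp51. It had 21.9, 14.5 and 15.8 CPM in F1-P and 13.8, 15.3 and 14.3 in F1-L against 8.31, 8.41 and 9.19 in B6-Y and 7.47, 9.44 and 6.75 in B6-O, with all 6 NZBW/F1 samples above all 6 C57BL/6 samples. The log2 difference was 0.92 in F1-P against B6-Y (SE 0.19, limma adjusted p = 0.0156) and 0.81 in F1-L against B6-O (SE 0.18, limma adjusted p = 0.0331). In CMPs it had 22.0, 23.4 and 23.2 CPM in F1-P and 25.2, 26.7 and 22.7 in F1-L. None of the other 15 synthesis members passed in a tested comparison.

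Most calls of F1-L against B6-O were lost in some of the fits with a library left out. Only Apoe passed when F1-L replicate 1, 2 or 3 or B6-O replicate 2 was left out, while 4 members passed without B6-O replicate 1 and 8 without B6-O replicate 3. The number of all genes passing moved as well. It was 1667 of 14381 with all libraries and 448 to 594 without an F1-L library. It was 806 and 799 without B6-O replicate 1 or 2, and 2285 of 14116 without B6-O replicate 3. Between F1-P and B6-Y, Apoe and Vldlr passed without any 1 library, and 2 to 5 members passed in all. In those fits 927 to 2229 of all genes passed, against 2331 with all libraries. In an alternative chosen after seeing the data, the 2 libraries highest in neutrophil or erythroid markers were left out together. Without F1-L replicate 1 and B6-O replicate 3, 7 members passed (Apoe, Vldlr, Srebf2, Cyp51, Npc1, Lrp1 and Hsd17b7), and without F1-P replicate 3 and B6-Y replicate 2, 2 did (Apoe and Vldlr). Among all genes, 1758 of 13404 passed in the first of these fits and 1076 of 13357 in the second. In CMPs Mylip and Insig1 passed without F1-P replicate 1, the F1-P library with the fewest neutrophil reads. In that fit 434 of 12774 genes passed, against 1 of 12926 with all libraries.

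**Figure D3:**
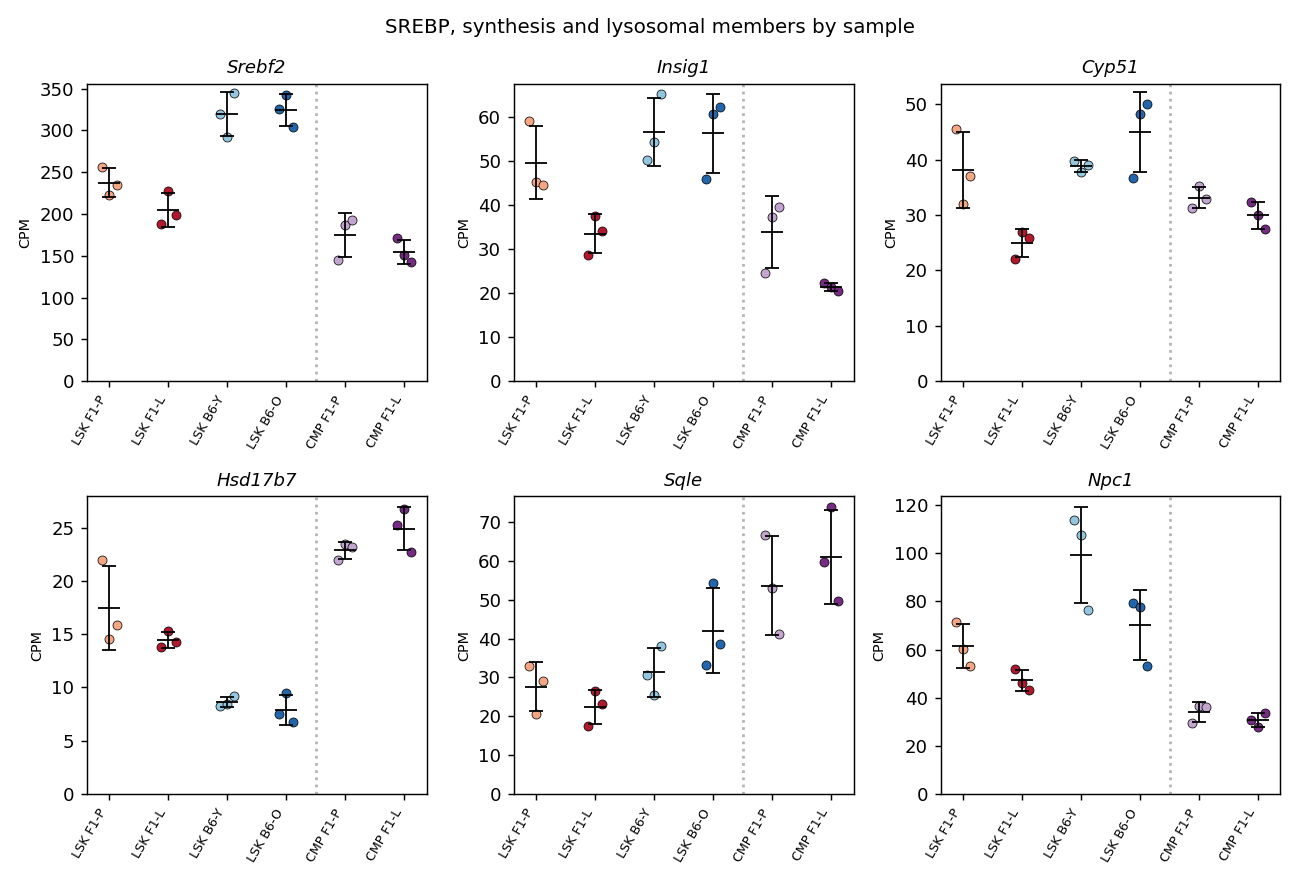
CPM of Srebf2, Insig1, Cyp51, Hsd17b7, Sqle and Npc1 in the 3 libraries of each group (points), with the mean and SD (bars); the dotted line parts LSK from CMPs. In LSK, F1-L lies below B6-O for all but Hsd17b7, which has 13.8 to 21.9 CPM in NZBW/F1 against 6.75 to 9.44 in C57BL/6.

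The 17 synthesis members run from Acat2, which condenses acetyl-CoA, and Hmgcs1 through the mevalonate enzymes to the late sterol enzymes such as Dhcr7 and Sc5d. Their summed CPM in LSK was 361, 325 and 349 in F1-P and 278, 295 and 282 in F1-L. It was 292, 283 and 353 in B6-Y and 296, 418 and 404 in B6-O. F1-L lay below F1-P and below B6-O in every sample, although B6-O replicate 1 was close, and F1-P and B6-Y overlapped. In CMPs the sum was 437, 409 and 365 in F1-P and 433, 458 and 392 in F1-L, with overlap.

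Within NZBW/F1 LSK, all 17 synthesis members had a lower mean log2 value in F1-L than in F1-P, against 51.8% of all 14332 genes, with a median log2 difference of −0.26 (range −0.58 to −0.01) against −0.01 over all genes. The 17 of 17 stood under each scaling and test run with all libraries. With a library left out, the sign turned in some fits for Acat2 (up to 0.13) and Pmvk (up to 0.08). This is the contrast by which the list came about, so the count is a description only. The other members were mixed, with 7 above and 10 below. Of the 34, 2 lay above without overlap (Apoe and Nr1h3, background 10.4%) and 8 lay below (Npc1, Srebf1, Insig1, Fdft1, Lss, Cyp51, Msmo1 and Nsdhl, background 7.29%). In that contrast 0.0279% of all genes passed the thresholds by limma, and 657 of 14332 passed by the likelihood ratio test. The largest difference of a synthesis member was in Cyp51, at −0.58, and the smallest in Acat2 and Pmvk, both at −0.01.

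In C57BL/6 LSK, 15 of the 17 synthesis members had a higher mean in B6-O and 2 a lower one, against 47.1% of all 14005 genes lower. The median log2 difference was 0.24 (range −0.13 to 0.40) against 0.02 over all genes, and no synthesis member was at an unadjusted p under 0.05. The median was 0.15 without B6-Y replicate 2 or B6-O replicate 3, and 0.35 without B6-O replicate 1. The B6-O replicates were spread, since replicate 1 was the lowest of the 3 for 14 of the 17 genes. Over all 34 members, 2 were above without overlap (Apoe and Lss, background 5.69%) and 0 below (background 5.57%). The 2 strains were not compared in this direction by a test.

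Between F1-L and B6-O, 15 of the 17 synthesis members had a lower mean in F1-L, against 52.4% of all genes, with a median log2 difference of −0.34 (range −0.87 to 0.81) against −0.03 over all genes. With median-of-ratios scaling the count was 14. Over the 34 members, 10 lay below without overlap (background 20.0%) and 5 above (background 17.5%). The median was −0.21 without B6-O replicate 3, −0.23 without B6-O replicate 2 and −0.51 without B6-O replicate 1. The F1-L samples are the same as in the contrast with F1-P, so the counts are not independent of each other. Between F1-P and B6-Y, 6 of 17 were lower (all genes 54.7%), with a median of 0.28 (range −0.41 to 0.92), and of the 34 members 5 lay below without overlap (background 18.1%) and 7 above (background 17.4%). That median was 0.16 without B6-Y replicate 2.

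In CMPs, 9 of the 17 synthesis members were lower and 8 higher in F1-L, against 42.0% of all 12926 genes lower, with a median log2 difference of −0.01 (range −0.36 to 0.31). Over the 34 members, 2 lay above without overlap (Insig2 and Dhcr7, background 9.45%) and 1 below (Insig1, background 6.57%). The late neutrophil markers were lower in F1-L for 11 of 11 genes, and they were high in CMP F1-P replicates 2 and 3. The 14 macrophage genes also summed higher there, to 218 and 339 CPM against 91.0 in replicate 1. Apoe, Lrp1, Abca1, Abcg1, Mylip and Insig1 were among the members above replicate 1 in both libraries, and Scarb1 was among those below it. The synthesis members were split. Hmgcs1, Mvk, Mvd, Fdps, Cyp51, Msmo1, Hsd17b7 and Sc5d were above replicate 1 in both libraries. Acat2, Pmvk, Idi1, Fdft1, Sqle, Lss, Nsdhl and Dhcr7 were below it in both. Ebp was above it in replicate 2 and below it in replicate 3. The part of those cells in these values was not tested.

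**Figure D4:**
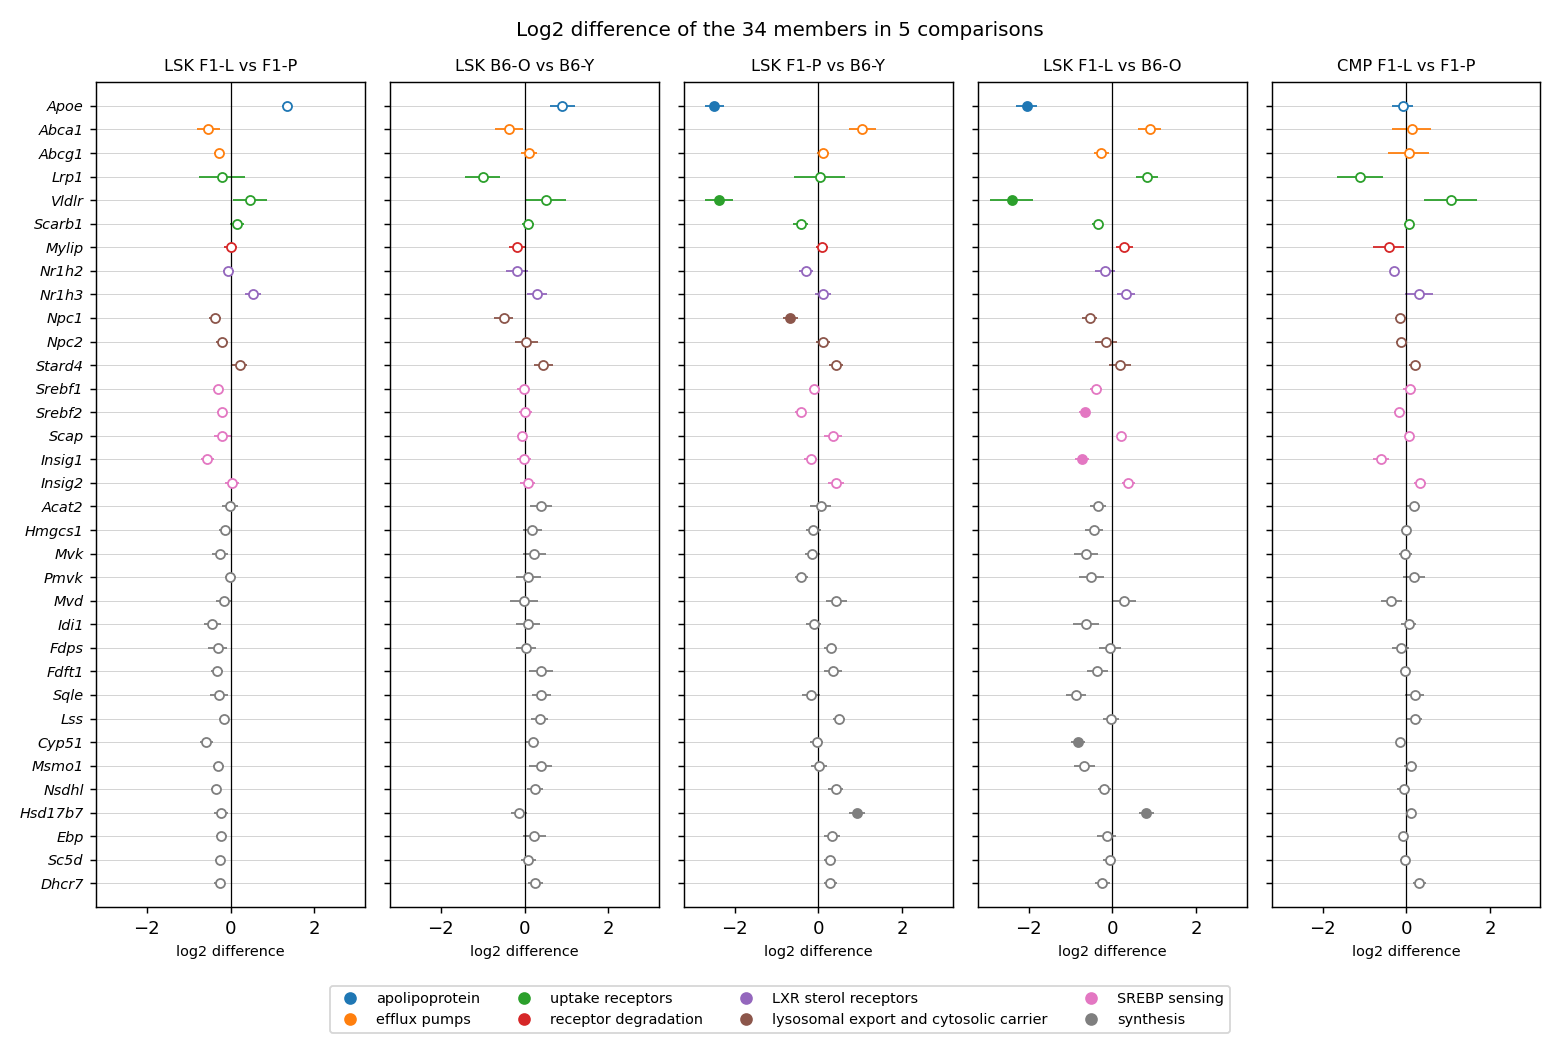
Log2 difference of the 34 members (first group minus second, log2 of CPM + 1, bars are the standard error) in 5 comparisons, coloured by role; filled points passed the test, and F1-L against F1-P in LSK was not tested. All synthesis genes lie below 0 in the first panel, and Apoe lies at 1.34 within NZBW/F1 and at −2.48 and −2.05 in the 2 comparisons of strain.

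The wider pathway was read from 45 other genes in 5 lists, of which 40 to 42 could be tested. In each comparison of strain 1 of 42 passed as lower in NZBW/F1 LSK. Among all genes, 889 of 14380 passed as lower in F1-P against B6-Y and 539 of 14381 in F1-L against B6-O. None passed in either direction between B6-O and B6-Y or in CMPs. Lrp8, another APOE receptor of the family of Vldlr, was lower in F1-P, with 40.3 ± 0.983 against 73.9 ± 17.1 CPM in B6-Y (log2 difference −0.83, SE 0.18, limma adjusted p = 0.0170). Scd2, a fatty acid desaturase, was lower in F1-L, with 168 ± 26.7 against 365 ± 92.6 CPM in B6-O (log2 difference −1.09, SE 0.22, limma adjusted p = 0.0228). Of the 6 other genes of sterol synthesis none passed in any tested comparison.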

How the data were processed

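Libraries of 12 LSK and 6 CMP samples were sequenced. Single-end reads of 75 bases were aligned by the authors to mm10 with STAR 2.6, counted per gene with HTSeq and scaled in edgeR, and the deposited tables hold CPM of the scaled library size (a signal per gene, not counts) for LSK (19780 genes) and CMPs (18428 genes), scaled separately. Whole reads were recovered from the low values (100% whole within 0.1 of a read), so the depth is known; counts of reads bound the precision of low genes. Symbols were matched through GENCODE M21 for 19770 and 18421 genes.

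Groups and replicate numbers came from the labels. The main test was limma 3.58.1 on log2(CPM + 1) across all genes with at least 1 CPM in at least 3 samples of the comparison, with Benjamini-Hochberg adjustment; a gene passed where the adjusted p was 0.05 or less and the fold change exceeded 1.5. edgeR 4.0.16 (quasi-likelihood and likelihood ratio) and DESeq2 1.42.0 were run on the recovered reads (R 4.3.3), and the test code was checked on simulated data. The tests were planned for plain CPM, and the scaled values were tested in the same way. The likelihood ratio test called 2750 genes in F1-P against B6-Y and 2193 in F1-L against B6-O, where limma called 2331 and 1667.

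Alternatives were the pseudocount (0.1 and 0.5), no filter or a mean of at least 5, other scalings, a replicate block, all 12 LSK samples in one fit, no fold change minimum, and each library left out. Same-numbered samples were not treated as pairs in the main test, since in no comparison did the deviations of every pair correlate above 0.1 (range -0.45 to 0.62). The members and lists were chosen with earlier results of these data known. Values of every sample are given for Apoe, for members that passed, and for the member with the largest difference of each role group over the comparisons; other pathway genes are named where they passed, except for a withheld item that is not reported here. Near-identical transcripts of other genes (at least 95% identity over at least 150 bases) were sought with BLAST for all members. Replicates of a group differed by more than sampling noise.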

Additional observations from a re-analysis of the deposited data

Results flagged for a closer look

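One member differed in opposite directions between the older and younger groups of the 2 strains, with no overlap of samples in either, although age and disease stage cannot be told apart in NZBW/F1. Lss, the lanosterol synthase, had 22.8, 26.5 and 25.9 CPM in LSK of F1-L, all below the 26.6, 29.1 and 28.6 of F1-P (log2 difference -0.16). In C57BL/6 it had 22.4, 33.0 and 22.3 CPM in B6-O, all above the 17.3, 20.7 and 21.2 of B6-Y (log2 difference 0.36), which did not pass the test (limma adjusted p = 0.841). Both gaps were narrow, with 26.5 against 26.6 CPM in NZBW/F1 and 22.3 against 21.2 CPM in C57BL/6. Over all genes, 7.29% lay lower without overlap in F1-L against F1-P, and 5.69% lay higher in B6-O against B6-Y. The share of all genes that met both was not counted, so Lss is given as a description only. The difference between the strains was not tested.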

How the results depend on the processing

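Between F1-P and B6-Y, 2 to 5 members passed with a library left out, and 2 without both marker-high libraries (F1-P replicate 3 and B6-Y replicate 2), where the median of the synthesis members was 0.0822 against 0.28 with all libraries; it was 0.16 to 0.27 with 1 library left out. Between F1-L and B6-O, 1 to 8 members passed with a library left out, with a synthesis median of -0.51 to -0.21. In CMPs 0 to 2 members passed, and the log2 difference of Apoe ran from -0.32 to 0.0690, turning positive without F1-L replicate 2 (0.0690) or F1-P replicate 3 (0.06). Between B6-O and B6-Y 0 passed in each fit. The number of all genes passing also moved with a library left out. It ran from 927 to 2229 in F1-P against B6-Y and from 448 to 2285 in F1-L against B6-O. In CMPs it ran from 0 to 434, and between B6-O and B6-Y from 0 to 48. Without both marker-high libraries it was 1076 in F1-P against B6-Y. The causes were not tested. The fits without both marker-high libraries were chosen after seeing the data.

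The replicate number, added as a replicate block, left 4 members passing between F1-P and B6-Y and 4 between F1-L and B6-O (Apoe, Cyp51, Insig1 and Sqle), and 0 in the other tested comparisons. Vldlr (limma adjusted p = 0.0514), Srebf2 (0.0507) and Hsd17b7 (0.0737) missed the threshold there. Among all genes the block left 2787 passing between F1-P and B6-Y and 1380 between F1-L and B6-O, against 2331 and 1667 without it. The labels do not say what same-numbered samples shared. The correlations of their deviations ranged from -0.45 to 0.62, and in no comparison did every pair exceed 0.1. In F1-P against B6-Y they were all positive, from 0.07 to 0.33. Whether equal numbers mark a shared batch was not tested. Low counts limit Nr1h3, with 5 reads in one CMP library.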
